A study of Mus musculus with 9 samples.

Results

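The genes described here encode 7 cytoplasmic intermediate filament proteins and 3 nuclear lamins. They were taken by name from the deposited expression table: Vim, Nes, Des, Krt7, Krt8, Krt18, Krt19, Lmna, Lmnb1 and Lmnb2. Each name stood on 1 row, so the 10 genes are 10 of 48640 rows, and all 10 were among the 13808 rows that were tested, those averaging 1 FPKM or more across the 9 libraries. FPKM is a fragment count scaled to transcript length and to the mapped fragments of the library. The study profiled colonies that came out of mouse embryonic fibroblast cultures after reprogramming and 75 days of culture, with 3 RNA-seq libraries in each of 3 groups. YAP colonies were non-pluripotent, carried the YAPmCherry mark, and were grown in ES cell medium with doxycycline on feeder cells. YAP-culture iPSCs were induced pluripotent stem cells from cultures transduced with the same YAP vector; their genotype label reads Oct4:GFP+YAPmCherry+, while their titles say that YAP overexpression had been lost. Control iPSCs came from cultures transduced with an empty vector and are labelled Oct4:GFP+. All 3 groups share fibroblast origin, lentiviral delivery, doxycycline during reprogramming and, per the labels' protocols, a feeder layer. Strain and embryo are not given in the sources used here, and the labels do not say whether replicates come from different cultures. The p-values therefore reflect the spread among these libraries alone, which may be technical.

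Intermediate filaments are rope-like polymers that give cells mechanical strength, and which filament protein a cell makes is a classical sign of its type. Vimentin marks mesenchymal cells such as fibroblasts, nestin marks neural and other progenitors, and desmin marks muscle. Keratins 8, 18, 7 and 19 are the keratins of simple epithelia and of the trophectoderm, and they polymerise only as pairs of a type II keratin (Krt7, Krt8) and a type I keratin (Krt18, Krt19). Lamins line the inner face of the nuclear envelope. B-type lamins (Lmnb1, Lmnb2) are made in nearly all cells, including pluripotent cells, whereas A-type lamins from Lmna rise as cells differentiate and in stiff, spread cells.

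The totals of FPKM were 509321 to 634471 per library. FPKM totals are not read counts, so the depth is unknown and no counting interval is given. The labels could be checked against marker genes. Zfp42, a naive pluripotency marker, was 0.191 to 0.546 FPKM in YAP colonies, 262 to 297 in YAP-culture iPSCs and 303 to 323 in control iPSCs. Nanog was 114 to 158, 292 to 326 and 366 to 400 FPKM in the same order, and Pou5f1, which encodes Oct4, was 267 to 295, 119 to 213 and 185 to 226. Of 6 pluripotency markers 5 fell in both colony comparisons and Pou5f1 was not called, with sums of 386 to 457 FPKM in YAP colonies, 5334 to 6051 in YAP-culture iPSCs and 4444 to 5577 in control iPSCs. The colonies, labelled non-pluripotent, therefore held transcripts counted as Nanog and Pou5f1. Whether any of these came from a delivered vector was not tested. The Yap1 row was 59.1 to 63.1 FPKM in YAP colonies, 32.5 to 39.1 in YAP-culture iPSCs and 40.4 to 45.8 in control iPSCs. Its higher level in the colonies (log2 difference 0.74 and 0.51) stayed under the fold threshold used below. YAP-culture iPSC replicate 3 stood apart from its group: its log2 values correlated at 0.969 with control iPSC replicate 2, and only at 0.944 and 0.934 with YAP-culture iPSC replicates 1 and 2. Colony replicate 1 was the lowest of its group in 7 of the 10 genes. Results that change without either library are given both ways.

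In YAP colonies the filament transcripts were almost wholly vimentin, lamin A/C was higher than in either iPSC group, and desmin, keratin 18 and keratin 7 were close to 0. A gene was called where limma's adjusted p was under 0.05 and the change was 1 or more, either way, on the log2(FPKM + 1) scale, a scale that understates the change of low genes. "Rose" and "fell" mean called. Against YAP-culture iPSCs, 6 of the 10 genes were called, with 30.3% of all tested genes called in that comparison. Vim, Nes and Lmna rose (15.8% of tested genes were called higher) and Des, Krt7 and Krt18 fell (14.5% lower). Against control iPSCs, 7 of the 10 were called, with 31.8% of all tested genes called. Vim and Lmna rose (14.9% higher) and Des, Krt7, Krt8, Krt18 and Krt19 fell (17.0% lower). The median log2 difference of the 10 genes was -0.13 against YAP-culture iPSCs and -0.85 against control iPSCs, beside 0.02 and -0.07 over all tested genes. These comparisons share the 3 colony libraries and are not independent of each other. With the groups not overlapping as the measure, 6 of the 10 genes were apart from YAP-culture iPSCs (3 higher, 3 lower), where 62.7% of tested genes were (31.2% higher, 31.5% lower), and 8 from control iPSCs (3 higher, 5 lower), where 73.3% were (34.1% higher, 39.2% lower). With no fold threshold, 6 and 8 of the 10 passed the adjusted p, beside 59.4% and 61.2% of tested genes. The low keratin genes and Des passed the expression filter mainly through their iPSC levels. Of the markers named below, Olig2, Eomes and Hand1 did so too. Dcn, Col1a1, Col3a1, Pax6, Actn2, Acta2, Tagln and Dab2 passed it mainly through their colony levels. The libraries are bulk samples, in which fewer cells that make a transcript and less transcript per cell cannot be told apart.

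**Figure D1:**
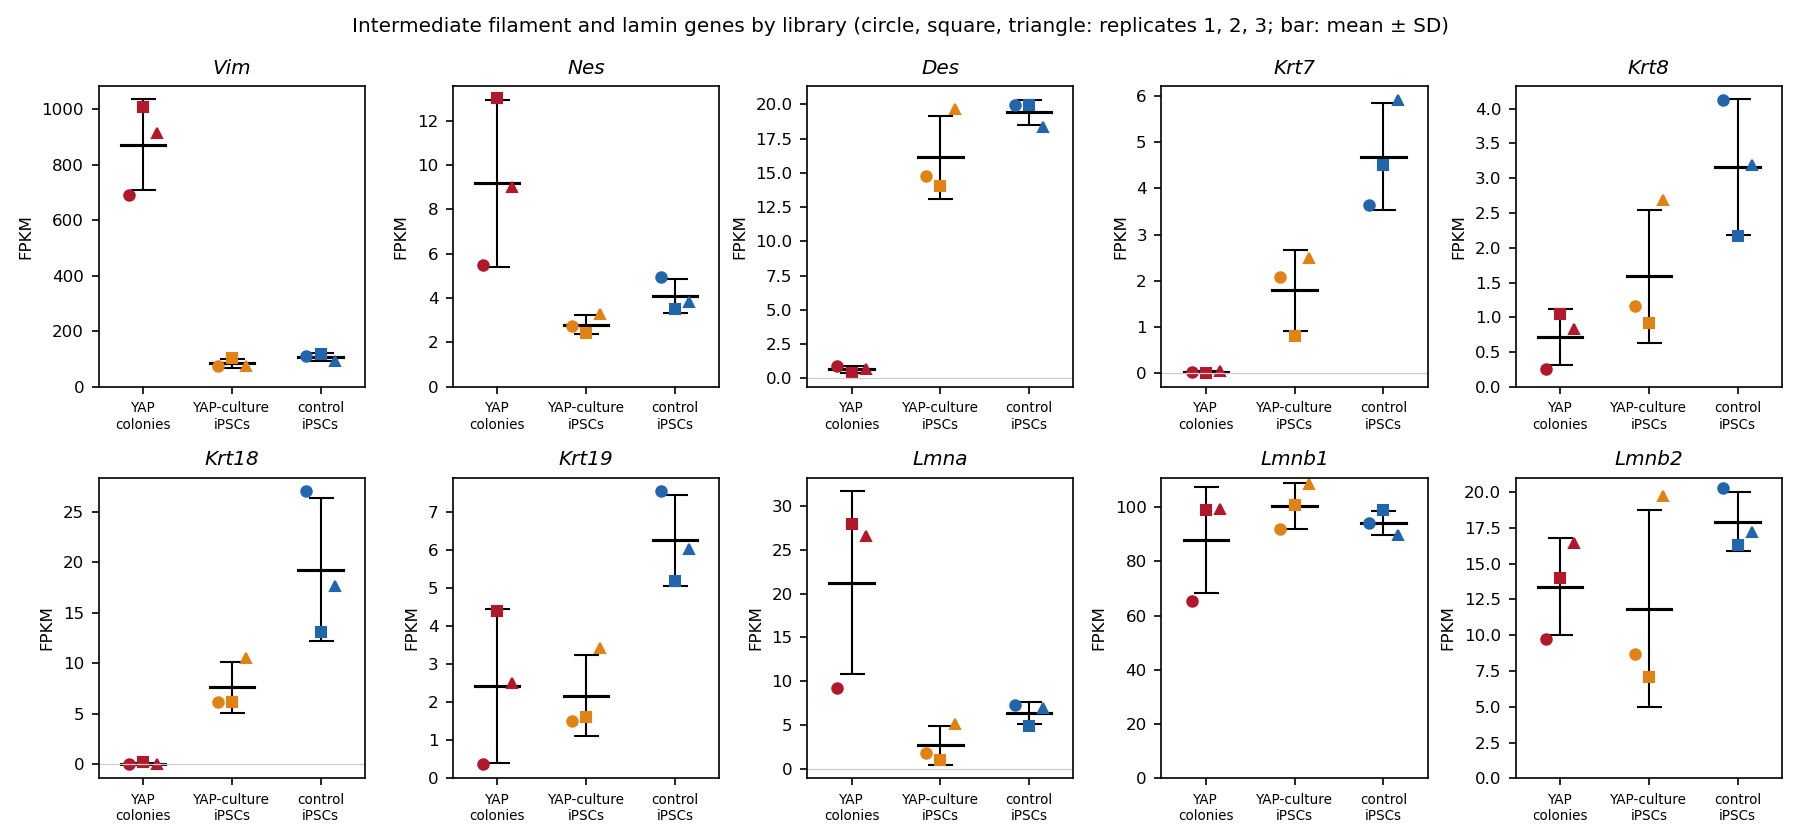
FPKM of each of the 10 genes (vertical axis, linear, a separate scale per panel) in YAP colonies, YAP-culture iPSCs and control iPSCs. Circles, squares and triangles are replicates 1, 2 and 3, and the bar with whiskers is the mean ± SD of 3 libraries. Vim is 691 to 1009.7 FPKM in YAP colonies and at most 119.5 in any iPSC library, Des, Krt7 and Krt18 are near 0 in the colonies, and Lmnb1 and Lmnb2 overlap between all groups.

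The promoter windows of 4 of these genes are shown to set side by side genes of different behaviour: vimentin and Lmna, which rose in the colonies, and the neighbouring partner keratins Krt8 and Krt18, of which Krt18 alone was called in all 3 comparisons. The sequences are from RefSeq (build GRCm38.p6), 250 bases before to 50 bases after an annotated start, written 5′ to 3′ on the strand of the gene. Of the 10 genes 8 had a window in that table, with 10 windows in all, because Lmna and Lmnb2 have 2 each. Krt19 and Lmnb1 have none. Capitals mark every match, on either strand, to the motifs searched: TEAD (GGAATG), AP-1 (TGANTCA), SP1 (GGGCGG) and the TATA box (TATAAA).
Vim, chr2:13574061-13574360, plus strand: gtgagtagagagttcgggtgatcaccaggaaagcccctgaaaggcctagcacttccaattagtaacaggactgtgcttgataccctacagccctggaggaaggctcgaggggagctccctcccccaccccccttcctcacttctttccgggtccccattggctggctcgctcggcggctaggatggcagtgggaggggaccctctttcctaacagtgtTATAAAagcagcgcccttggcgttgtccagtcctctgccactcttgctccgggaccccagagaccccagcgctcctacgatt
Krt8, chr15:102004293-102004592, minus strand: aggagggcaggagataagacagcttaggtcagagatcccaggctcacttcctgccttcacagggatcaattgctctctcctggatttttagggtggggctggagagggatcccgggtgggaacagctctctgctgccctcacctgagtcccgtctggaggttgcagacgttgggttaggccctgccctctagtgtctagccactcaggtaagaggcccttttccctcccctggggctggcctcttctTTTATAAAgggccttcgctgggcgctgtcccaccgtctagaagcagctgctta
Krt18, chr15:102027966-102028265, plus strand: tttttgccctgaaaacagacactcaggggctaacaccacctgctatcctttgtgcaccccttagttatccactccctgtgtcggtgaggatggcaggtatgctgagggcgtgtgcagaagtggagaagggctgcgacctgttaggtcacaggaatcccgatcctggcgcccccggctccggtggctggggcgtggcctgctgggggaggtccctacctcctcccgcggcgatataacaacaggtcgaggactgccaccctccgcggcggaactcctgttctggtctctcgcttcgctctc
Lmna, chr3:88503303-88503602, minus strand: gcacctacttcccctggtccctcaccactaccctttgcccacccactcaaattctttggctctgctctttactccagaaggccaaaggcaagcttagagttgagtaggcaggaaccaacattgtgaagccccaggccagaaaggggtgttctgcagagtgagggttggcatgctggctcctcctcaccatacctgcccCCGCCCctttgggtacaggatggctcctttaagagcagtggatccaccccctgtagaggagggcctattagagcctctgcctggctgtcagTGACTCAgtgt
Vim held 1 TATA match, which began 32 bases before its annotated start. Krt8 held 2 TATA matches, 1 on each strand, which overlap each other and lie across its annotated start, and Krt18 held no match to any of the 4 motifs. The Lmna window shown held 1 SP1 and 1 AP-1 match, the AP-1 letters after the start, and was the only window of the 10 with AP-1 letters. Both Lmna windows lie at annotated starts inside the gene row (chromosome 3, 88480147 to 88509956). Neither covers the upstream end of that row. The Vim window likewise lies inside its gene row, which begins at 13573927, and so do the Krt7 window and 1 Lmnb2 window. Krt7 held 4 SP1 matches, Nes and Des 2 each and a Lmnb2 window 1. None of the 10 windows held the TEAD letters. Among all 32851 windows of the table, 14.7% held TEAD, 7.81% AP-1, 35.7% SP1 and 13.6% TATA letters. These are matches of letters only and describe neither binding nor control.

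Vim (chromosome 2, 13573927 to 13582826, mm10) was the most abundant cytoplasmic filament transcript in every library. It was 691, 1009.7 and 914 FPKM in YAP colonies, 74.3, 103 and 74.7 in YAP-culture iPSCs, and 112, 119.5 and 92.0 in control iPSCs. No colony library came near an iPSC library, while the iPSC groups overlapped. Vim rose in the colonies by 3.36 ± 0.19 (SE) on the log2 scale against YAP-culture iPSCs (limma adjusted p = 9.86e-07) and by 3.00 ± 0.19 against control iPSCs (limma adjusted p = 1.86e-06). The means of 872 ± 164 against 84.1 ± 16.7 and 108 ± 14.2 FPKM (SD, n = 3 each) are a 10.4-fold and an 8.09-fold difference. Between the iPSC groups the log2 difference was -0.36, with a 95% interval of -0.79 to 0.07, and was not called (limma adjusted p = 0.223).

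Nes (chromosome 3, 87971078 to 87980451), the class VI filament protein of progenitors that co-assembles with vimentin, was far lower than Vim throughout. Its FPKM was 5.50, 13.02 and 8.98 in YAP colonies, 2.73, 2.42 and 3.27 in YAP-culture iPSCs, and 4.96, 3.48 and 3.80 in control iPSCs. All colony libraries lay above all iPSC libraries, although colony replicate 1 exceeded the highest control library only narrowly. Nes rose against YAP-culture iPSCs by 1.35 ± 0.26 (SE) on the log2 scale (limma adjusted p = 0.00171), and with a pseudocount of 5 the difference was 0.83 and was not called. Against control iPSCs the difference was 0.94 ± 0.26 with a limma adjusted p of 0.0114 and stayed under the fold threshold; without colony replicate 1 it was 1.23 and was called (limma adjusted p = 0.00132).

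Markers of cells in which vimentin and nestin are usual moved with these genes in part. The summed level of 13 fibroblast and feeder markers was 39.2 to 46.1 FPKM in YAP colonies, 5.51 to 10.9 in YAP-culture iPSCs and 5.62 to 8.06 in control iPSCs. The 4 tested members, Thy1, Dcn, Col1a1 and Col3a1, rose in both comparisons, where 15.8% and 14.9% of tested genes were called higher. Dcn, Col1a1 and Col3a1 passed the filter through their colony levels, so the 4 do not stand for the list. The other 9 were too low to test. Of those, Col1a2 averaged 2.13 FPKM in YAP colonies, 0.492 in YAP-culture iPSCs and 0.244 in control iPSCs. Postn averaged 1.45, 0.742 and 0.347 FPKM in the same order, and neither gene's colony libraries overlapped an iPSC library. Pdgfrb and Twist1 were lower in the colonies. Pdgfrb averaged 0.315 FPKM in YAP colonies, 0.905 in YAP-culture iPSCs and 0.931 in control iPSCs, and Twist1 averaged 0.0731, 0.773 and 0.485. Pdgfra, Prrx1, Lum and Fap were at or below 0.468 FPKM in the colonies, with higher means there than in either iPSC group, and Twist2 stood at 0 in the 3 colony libraries. Of 7 neural progenitor markers 3 were tested, and Pax6 and Sox11 rose while Olig2 fell in both comparisons. The summed level of the 7 was 36.3 to 46.7 FPKM in YAP colonies, 8.03 to 8.97 in YAP-culture iPSCs and 8.83 to 10.99 in control iPSCs. Of the untested markers, Sox1 was 2.87, 0.644 and 0.481 FPKM in YAP colonies. It averaged 0.417 FPKM in YAP-culture iPSCs and 0.154 in control iPSCs. Hes5, Fabp7 and Pax3 were at most 0.860 FPKM in the colonies, with higher means there than in either iPSC group. The part of feeder, fibroblast or neural cells in the Vim and Nes differences was not tested.

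Des (chromosome 1, 75360329 to 75368579), the muscle filament protein, ran opposite to Vim, its fellow type III filament gene. Its FPKM was 0.881, 0.381 and 0.717 in YAP colonies, 14.8, 14.1 and 19.6 in YAP-culture iPSCs, and 19.97, 19.96 and 18.4 in control iPSCs. The iPSC groups overlapped and the colonies lay far below both. Des fell in both comparisons, with log2 differences of -3.37 from YAP-culture iPSCs (SE 0.16, limma adjusted p = 2.96e-07) and -3.63 from control iPSCs (SE 0.16, limma adjusted p = 1.79e-07). Markers of skeletal muscle were low in all libraries. Myod1 was listed at 0 in all 9 libraries, Myog and Ckm were at most 0.126 and 0.351 FPKM, and the 8 skeletal muscle markers summed to 2.61 to 4.59 FPKM in YAP colonies, 0.781 to 1.46 in YAP-culture iPSCs and 1.77 to 3.31 in control iPSCs. Actn2 made up most of the colony sum and rose against YAP-culture iPSCs. Ttn and Myh3 ran the same way as Des, with no overlap: Ttn averaged 0.0148 FPKM in YAP colonies, 0.270 in YAP-culture iPSCs and 0.154 in control iPSCs, and Myh3 averaged 0.0733, 0.332 and 0.570. Their part in the Des difference was not tested. The 6 smooth muscle markers summed to 114 to 151 FPKM in YAP colonies, 0.651 to 1.30 in YAP-culture iPSCs and 0.647 to 1.28 in control iPSCs. Acta2 and Tagln carried the colony sum and went the other way from Des. Cnn1 and Myh11 had their lowest means in the colonies, as Des did, though their libraries overlapped. Cnn1 averaged 0.0589 FPKM in YAP colonies, 0.116 in YAP-culture iPSCs and 0.167 in control iPSCs, and Myh11 averaged 0.0230, 0.0380 and 0.0288. Lmod1 averaged 0.428, 0.295 and 0.395 FPKM in the same order, with overlap, and Myocd was at most 0.0266 FPKM in every library.

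The keratin genes were low beside Vim in all libraries, and Krt18 and Krt7 were lowest in the colonies. Krt18 (chromosome 15, 102028216 to 102032026), the type I partner of keratin 8, was 0.0538, 0.196 and 0 FPKM in YAP colonies, 6.20, 6.19 and 10.5 in YAP-culture iPSCs, and 27.0, 13.1 and 17.7 in control iPSCs. The 3 groups did not overlap, in the order colonies, YAP-culture iPSCs, control iPSCs. Krt18 fell in both comparisons, with log2 differences of -2.96 from YAP-culture iPSCs (SE 0.27, limma adjusted p = 1.83e-05) and -4.17 from control iPSCs (SE 0.27, limma adjusted p = 2.04e-06). A 0 in this table can be a failed estimate, since 31 rows of the table hold a 0 in 1 library and over 20 FPKM in both other libraries of the same group.

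Krt7 (chromosome 15, 101411043 to 101430313), a type II keratin of simple epithelia, had the same order of groups. Its FPKM was 0.0194, 0 and 0.0378 in YAP colonies, 2.08, 0.799 and 2.497 in YAP-culture iPSCs, and 3.64, 4.51 and 5.92 in control iPSCs. No library of a group overlapped another group. Krt7 fell in both comparisons, with log2 differences of -1.40 from YAP-culture iPSCs (SE 0.25, limma adjusted p = 0.00128) and -2.46 from control iPSCs (SE 0.25, limma adjusted p = 3.77e-05). With a pseudocount of 5 in place of 1 the differences were -0.43 and -0.94, and neither was called.

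Krt8 (chromosome 15, 101996711 to 102004342) lies 23.9 kb from Krt18, and the genes are transcribed away from each other. Krt8 FPKM was 0.263, 1.05 and 0.827 in YAP colonies, 1.17, 0.919 and 2.69 in YAP-culture iPSCs, and 4.12, 2.17 and 3.18 in control iPSCs. The colonies overlapped the YAP-culture iPSCs and lay below the control iPSCs. Against YAP-culture iPSCs the log2 difference was -0.57, with a 95% interval of -1.24 to 0.11 (limma adjusted p = 0.133). Against control iPSCs Krt8 fell by 1.28 (SE 0.30, limma adjusted p = 0.00513), and with quantile normalization the difference was -0.96 and was not called.

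Krt8 values are uncertain, because a pseudogene, Krt8-ps on chromosome 7, has 98.6% identity with the longest Krt8 transcript over 941 of its 1958 bases and has a row of its own. Krt8-ps was 0.257, 1.33 and 0.336 FPKM in YAP colonies, 1.76, 1.22 and 2.69 in YAP-culture iPSCs, and 4.79, 3.16 and 3.27 in control iPSCs. It was lowest in the colonies on average, as Krt8 was. It was below Krt8 in colony replicates 1 and 3 and above it in every other library. The values were nearly equal in colony replicate 1, YAP-culture iPSC replicate 3 and control iPSC replicate 3. Reads of the gene and of the pseudogene cannot be told apart in these values. With both rows summed, an alternative chosen after seeing the data, the log2 difference was -0.94 against YAP-culture iPSCs and -1.80 against control iPSCs, with limma adjusted p of 0.0418 and 0.00177. The ratio of Krt18 to the Krt8 row alone, without Krt8-ps, was 0 to 0.205 in YAP colonies, 3.92 to 6.74 in YAP-culture iPSCs and 5.55 to 6.56 in control iPSCs. Of the other genes, Krt18 matched Gm5200, which was not analysed here, at 90.5% over 1267 bases, and Des matched Gm15179, listed at 0 in all libraries, over 222 bases. No other gene transcript matched a member at 90% identity or more over 200 bases or more.

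Krt19 (chromosome 11, 100140810 to 100148665), the smallest type I keratin, overlapped between colonies and YAP-culture iPSCs, as Krt8 did and Krt7 and Krt18 did not. Its FPKM was 0.376, 4.41 and 2.497 in YAP colonies, 1.503, 1.61 and 3.42 in YAP-culture iPSCs, and 7.56, 5.19 and 6.03 in control iPSCs. The colonies spread across the whole range of the YAP-culture iPSCs and beyond it, and stayed below the control iPSCs. Against YAP-culture iPSCs the log2 difference was -0.05, with a 95% interval of -1.09 to 0.99 (limma adjusted p = 0.936), and its sign changed without colony replicate 1 (0.50) and without YAP-culture iPSC replicate 3 (0.21). Against control iPSCs Krt19 fell by 1.28 (SE 0.46, limma adjusted p = 0.0367). That call depended on single libraries: without colony replicate 1 the difference was -0.73 (limma adjusted p = 0.0773), without colony replicate 3 it was -1.40 (0.0595), without YAP-culture iPSC replicate 1 it was -1.28 (0.0516), and without control iPSC replicate 1, 2 or 3 the adjusted p was 0.107, 0.0610 and 0.0838.

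Taking the 7 cytoplasmic genes as a sum of FPKM, which compares genes per length, Vim made up 98.1% to 99.0% in YAP colonies, 64.0% to 79.9% in YAP-culture iPSCs and 62.4% to 71.2% in control iPSCs. The 4 keratin genes made up 0.102% to 0.549%, 7.36% to 16.4% and 14.9% to 23.7% in the same order. The sum itself was 885 ± 169 FPKM in YAP colonies, 116 ± 13.4 in YAP-culture iPSCs and 165 ± 16.2 in control iPSCs (SD, n = 3 each). Epithelial and trophoblast markers had their lowest means in the colonies, as Krt7, Krt8 and Krt18 did and Krt19 did not. The 9 markers of that list summed to 17.8 to 27.6 FPKM in YAP colonies, 139 to 172 in YAP-culture iPSCs and 180 to 206 in control iPSCs. Epcam and Cdh1 made up most of each iPSC sum. Of 5 tested, 4 fell against YAP-culture iPSCs (Epcam, Tfap2c, Cdh1 and Eomes), and these and Hand1 fell against control iPSCs. Over all tested genes, 14.5% and 17.0% were called lower in these comparisons. Between the iPSC groups Tfap2c and Hand1 fell, Epcam was not called (-0.30), and Cdh1 (0.14) and Eomes (0.06) were not lower. Cdx2, a trophectoderm factor, was listed at 0 in all colonies and was at most 0.367 FPKM elsewhere. The 7 markers of extraembryonic endoderm, where keratins 8 and 18 are also usual, summed to 4.30 to 5.79 FPKM in YAP colonies, 2.44 to 2.56 in YAP-culture iPSCs and 1.81 to 2.62 in control iPSCs. The 1 tested, Dab2, rose in both comparisons and, at a mean of 4.74 FPKM, made up most of the colony sum. Gata4 averaged 0.389 FPKM in YAP colonies, 1.13 in YAP-culture iPSCs and 1.01 in control iPSCs. Gata6 averaged 0.0287, 0.0980 and 0.0666 in the same order, and Sox17, Sox7, Foxa2 and Afp were listed at 0 in all colonies. Whether epithelial, endoderm or trophoblast cells were present, and what part they had in the keratin differences, was not tested.

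**Figure D2:**
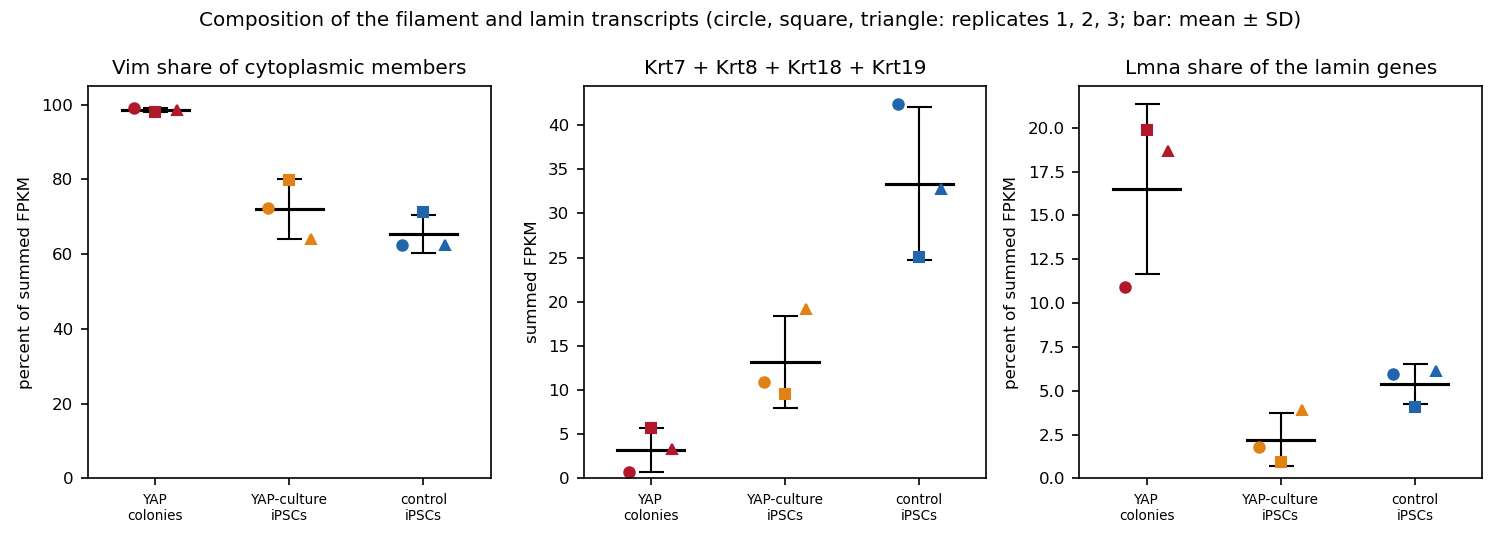
Left, Vim as a percentage of the summed FPKM of the 7 cytoplasmic filament genes. Middle, summed FPKM of Krt7, Krt8, Krt18 and Krt19. Right, Lmna as a percentage of the summed FPKM of Lmna, Lmnb1 and Lmnb2, for YAP colonies, YAP-culture iPSCs and control iPSCs. Symbols are replicates 1, 2 and 3 and bars are mean ± SD of 3 libraries. The colonies have the highest shares of Vim and Lmna and the lowest keratin sum, and colony replicate 1 is the lowest of its group in Lmna share.

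Lmna (chromosome 3, 88480147 to 88509956) encodes lamins A and C. Its FPKM was 9.20, 28.0 and 26.6 in YAP colonies, 1.82, 1.03 and 5.17 in YAP-culture iPSCs, and 7.25, 4.90 and 6.99 in control iPSCs. The colonies lay above all iPSC libraries, with colony replicate 1 close to the highest control iPSC library, and YAP-culture iPSC replicate 3 fell inside the control range. Lmna rose against YAP-culture iPSCs by 2.62 ± 0.49 (SE) on the log2 scale (limma adjusted p = 0.00152). It rose against control iPSCs by 1.46 ± 0.49 (limma adjusted p = 0.0275), a call lost when single libraries were left out. Without colony replicate 2 or 3 the differences were 1.20 and 1.24 with adjusted p of 0.1 and 0.095, and without control iPSC replicate 1, 2 or 3 they were 1.55, 1.31 and 1.53 with adjusted p of 0.0538, 0.0862 and 0.0608. Without colony replicate 1, the low one, the difference was 1.95 and was called.

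The B-type lamin genes showed no called difference. Lmnb1 (chromosome 18, 56707813 to 56753424) was 65.2, 98.8 and 99.2 FPKM in YAP colonies, 91.9, 101 and 109 in YAP-culture iPSCs, and 94.1, 98.7 and 89.7 in control iPSCs. Apart from colony replicate 1 all libraries lay within a narrow band. The log2 differences of the colonies were -0.21 (95% interval -0.59 to 0.16) against YAP-culture iPSCs and -0.13 (-0.50 to 0.25) against control iPSCs, so neither interval holds a change of 1. Lmnb2 (chromosome 10, 80901203 to 80918245) was 9.74, 14.002 and 16.5 FPKM in YAP colonies, 8.70, 7.11 and 19.7 in YAP-culture iPSCs, and 20.2, 16.3 and 17.2 in control iPSCs. Its differences were 0.26 (-0.49 to 1.02) and -0.42 (-1.17 to 0.34), with the widest spread among the YAP-culture iPSCs. Lmna made up 10.9% to 19.9% of the lamin sum in YAP colonies, 0.949% to 3.87% in YAP-culture iPSCs and 4.08% to 6.14% in control iPSCs, and the lamin sum was 122 ± 33.1, 115 ± 16.4 and 118 ± 4.06 FPKM (SD, n = 3 each).

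**Figure D3:**
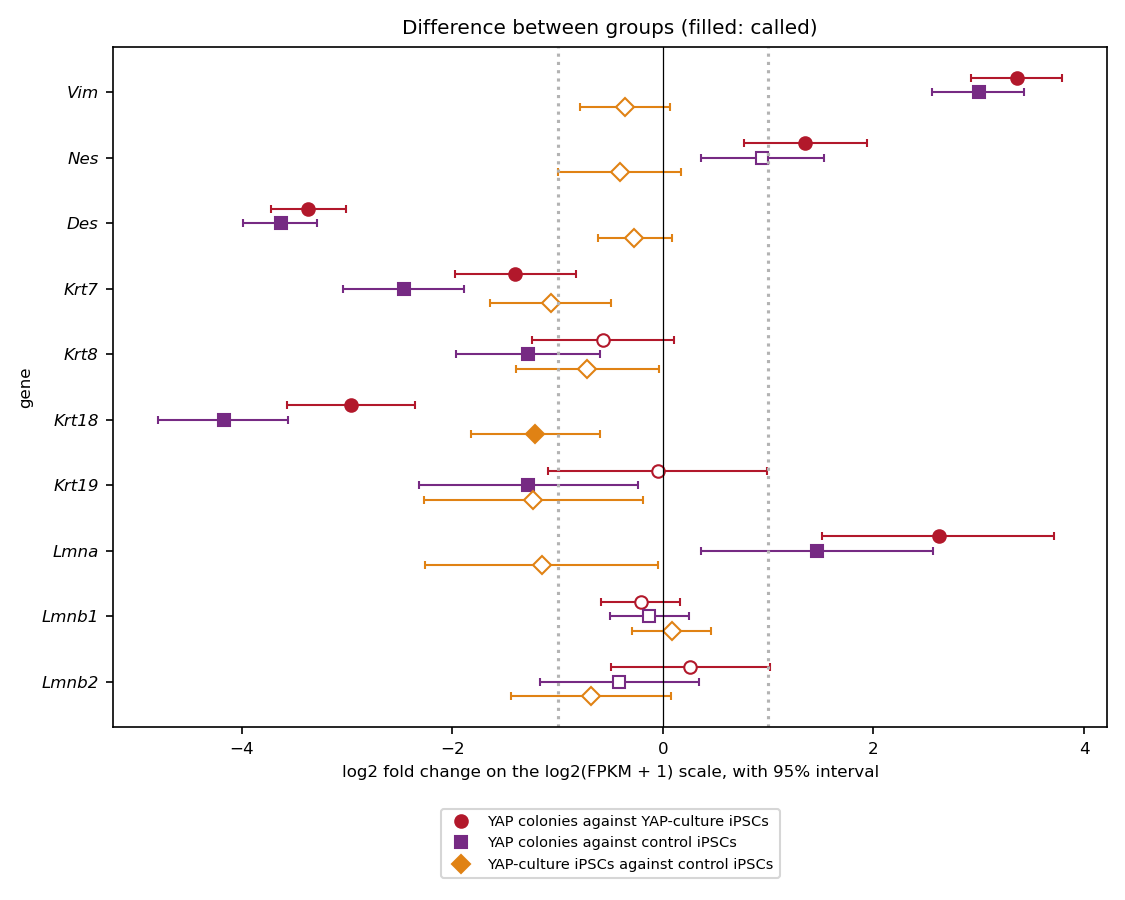
Log2 fold change of each gene on the log2(FPKM + 1) scale (horizontal axis) with its 95% interval from limma, for YAP colonies against YAP-culture iPSCs (circles), YAP colonies against control iPSCs (squares) and YAP-culture iPSCs against control iPSCs (diamonds). Filled symbols are called and dotted lines mark a log2 change of 1 either way. Vim is at 3.36 and 3.00 in the colony comparisons, Des at -3.37 and -3.63, and Lmnb1 lies between -0.21 and 0.09 in all 3.

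Between YAP-culture iPSCs and control iPSCs, 1 of the 10 genes was called, with 1.39% of all tested genes called (0.507% higher, 0.884% lower), and 1 passed the adjusted p alone, beside 4.56%. Krt18 was 7.64 ± 2.51 FPKM in YAP-culture iPSCs and 19.3 ± 7.09 in control iPSCs (SD, n = 3 each), and fell by 1.21 on the log2 scale (SE 0.27, limma adjusted p = 0.0449). With the replicate number as a block it had the same difference and an adjusted p of 0.0718, and it was not called in 7 of the 9 fits that left out a library (adjusted p of 0.0690 to 0.145). The exceptions were the fits without YAP-culture iPSC replicate 3 and without control iPSC replicate 2. Krt7 was 1.79 ± 0.884 against 4.69 ± 1.15 FPKM, a log2 difference of -1.06 with a limma adjusted p of 0.0523, and was not called. The log2 differences of Krt19 (-1.23), Lmna (-1.15), Krt8 (-0.72) and Lmnb2 (-0.68) had adjusted p of 0.122 to 0.198. The 3 YAP-culture libraries lay below the 3 control libraries for Nes, Krt7, Krt18 and Krt19, which is 4 of the 10 genes, all of them lower, where the groups of 30.4% of tested genes did not overlap (16.6% higher, 13.8% lower).

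This comparison turned on YAP-culture iPSC replicate 3. Without it 5 of the 10 genes were called, with 7.59% of all tested genes called, and all 5 were lower in YAP-culture iPSCs: Krt18, Krt7, Krt8, Lmna and Lmnb2. Lmna was then 1.82 and 1.03 FPKM in YAP-culture iPSCs, and its log2 difference was -1.61 (limma adjusted p = 0.0279). Lmnb2 was 8.70 and 7.11 FPKM and differed by -1.09 (limma adjusted p = 0.00858), and Krt8 passed both thresholds (limma adjusted p = 0.0227). In the left-out library Lmna, Lmnb2 and Krt8 were 5.17, 19.7 and 2.69 FPKM, each inside the range of the control iPSCs. The differences of Vim (-0.28) and Des (-0.41) stayed below the fold threshold without it.

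Other intermediate filament genes were few and mostly low. Of 56 (other keratin genes whose symbols end in a number, the neurofilament genes and their relatives) 14 were listed at 0 in all libraries and 6 were tested. The filter keeps out genes expressed at a low level in a single group, so the 6 do not stand for the list. Among the 50 not tested, Krt20, chosen after its values were seen, was 1.88, 1.35 and 1.54 FPKM in YAP colonies and at most 0.192 in every iPSC library. Krt13, likewise, averaged 1.57 ± 1.29 FPKM in YAP colonies, 0.180 ± 0.230 in YAP-culture iPSCs and 0.0543 ± 0.0941 in control iPSCs (SD, n = 3 each), and the colonies overlapped the YAP-culture iPSCs. Of the 6 tested, 0 rose and 3 fell in each colony comparison. Over all tested genes, 15.8% were called higher and 14.5% lower against YAP-culture iPSCs, and 14.9% and 17.0% against control iPSCs. Krt42, Krt17, Ina and Nefh passed the filter through their iPSC levels. Krt42, Krt17 and Nefh fell against YAP-culture iPSCs (Nefh is a neurofilament gene), and Krt42, Krt17 and Ina fell against control iPSCs. The median log2 difference of the 6 was -1.13 and -1.60, which stand beside the medians of all tested genes given above. Krt42, a type I keratin gene, was listed at 0 in all 3 colonies and was 5.87, 5.72 and 17.7 FPKM in YAP-culture iPSCs and 50.4, 31.0 and 40.8 in control iPSCs, above Krt18 in each control library. It was also called between the iPSC groups, by -2.11 on the log2 scale (limma adjusted p = 0.0246), though not without YAP-culture iPSC replicate 1 or 2 (adjusted p of 0.0848 and 0.0714), control iPSC replicate 1 or 3 (0.104 and 0.110) or colony replicate 2 or 3 (0.0570 and 0.0540). Krt17, a keratin of basal and stressed epithelium, was 0, 0.0872 and 0.0934 FPKM in YAP colonies, 1.82, 1.53 and 7.28 in YAP-culture iPSCs, and 6.34, 5.82 and 5.599 in control iPSCs. Ina, the neuronal internexin gene, was listed at 0 in all colonies and YAP-culture iPSCs and was 4.90, 2.59 and 3.73 FPKM in control iPSCs.

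**Figure D4:**
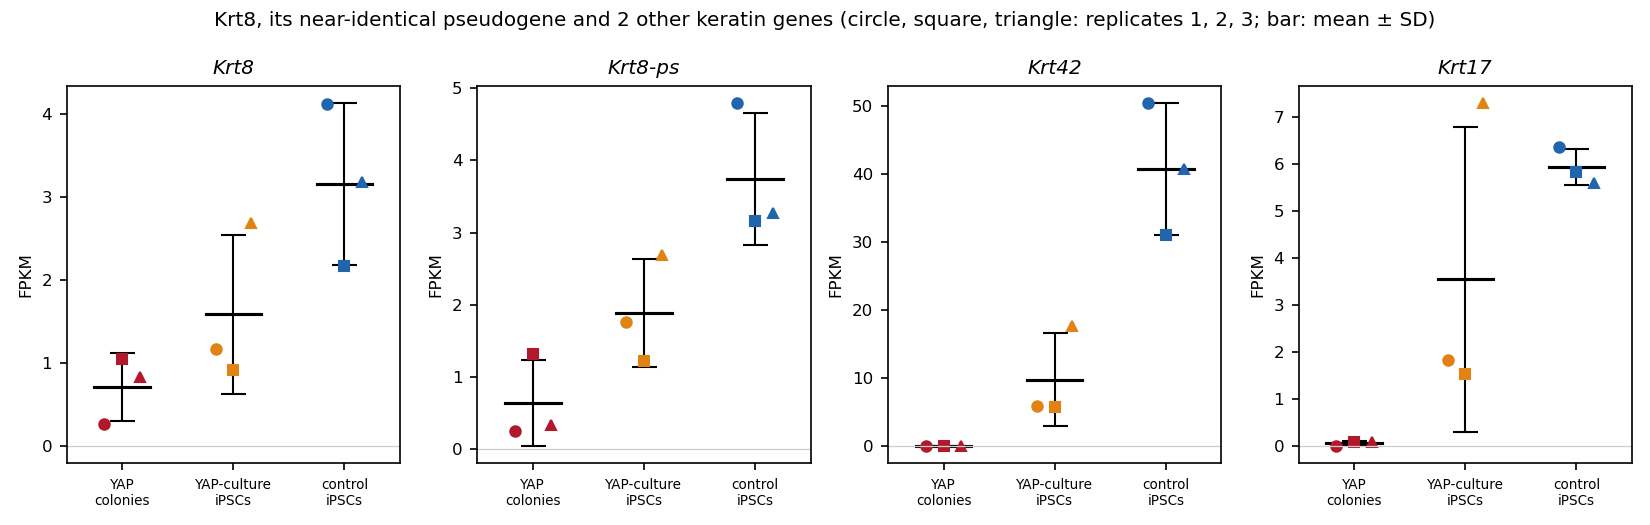
FPKM (vertical axis, linear, a separate scale per panel) of Krt8, its pseudogene Krt8-ps, Krt42 and Krt17 in YAP colonies, YAP-culture iPSCs and control iPSCs. Symbols are replicates 1, 2 and 3 and bars are mean ± SD of 3 libraries. Krt8 and Krt8-ps have the same order of group means, Krt42 is listed at 0 in the colonies, and YAP-culture iPSC replicate 3 is the highest of its group in all 4 panels.

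Genes that tie filaments to junctions and other structures moved in both directions. Of 20 filament linker, desmosome and filament chaperone genes 18 were tested. Against YAP-culture iPSCs 8 rose and 4 fell (median log2 difference 0.87), and against control iPSCs 7 rose and 4 fell (0.58). Over all tested genes, 15.8% were called higher and 14.5% lower against YAP-culture iPSCs, and 14.9% higher and 17.0% lower against control iPSCs. Pkp1, which encodes the desmosomal plaque protein plakophilin 1, was 19.6, 21.996 and 25.9 FPKM in YAP colonies and at most 0.260 in every iPSC library, and rose by 4.35 and 4.46 on the log2 scale (limma adjusted p = 3.21e-08 and 2.60e-08). Cryab, the small heat shock protein that binds desmin and vimentin filaments, was 67.3, 102 and 91.3 FPKM in YAP colonies, 4.65, 5.77 and 8.96 in YAP-culture iPSCs, and 3.00, 2.64 and 2.52 in control iPSCs. It rose by 3.58 and 4.55 (limma adjusted p = 1.72e-06 and 3.79e-07). Dsg2, the desmosomal cadherin of simple epithelia, was 0, 0.172 and 0.0343 FPKM in YAP colonies, 8.95, 6.15 and 7.13 in YAP-culture iPSCs, and 9.54, 9.14 and 9.36 in control iPSCs. Dsg2 fell in both comparisons, by log2 differences of -2.97 and -3.28 (limma adjusted p = 2.84e-07 and 1.46e-07). Hspb1, another small heat shock protein of filaments, also fell, with log2 differences of -2.56 and -3.49 (limma adjusted p = 1.71e-04 and 2.36e-05). None of the 18 was called between the iPSC groups.

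**Figure D5:**
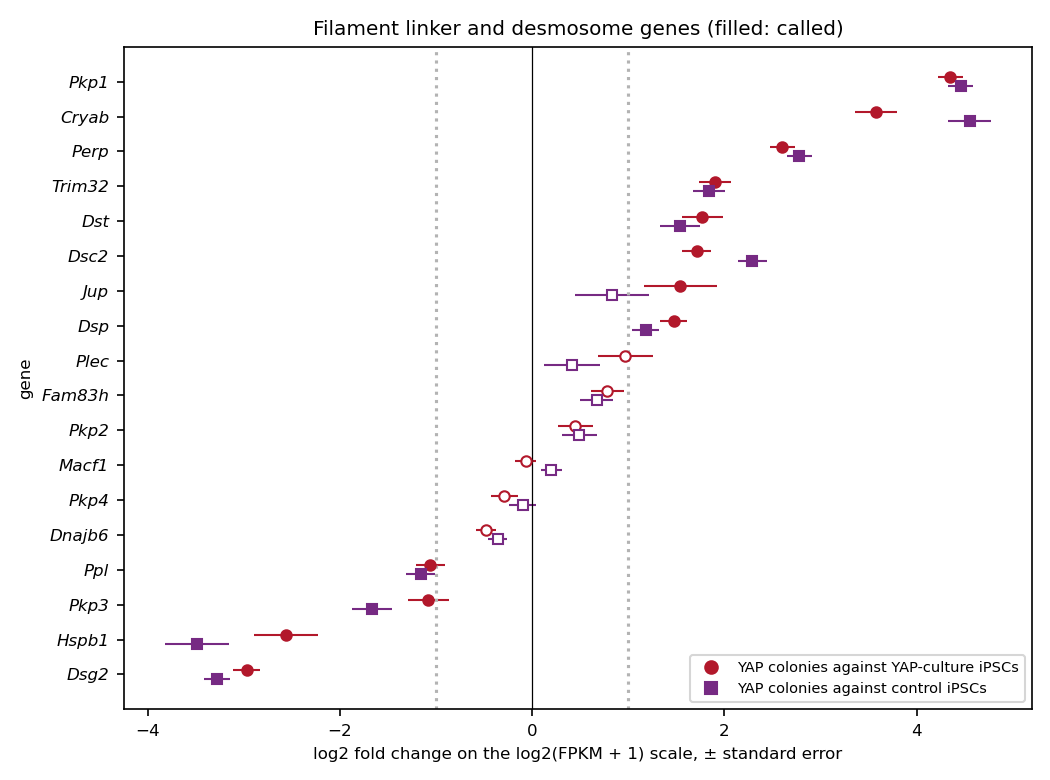
Log2 fold change on the log2(FPKM + 1) scale with its standard error (horizontal axis) of the 18 tested filament linker, desmosome and chaperone genes, for YAP colonies against YAP-culture iPSCs (circles) and YAP colonies against control iPSCs (squares). Filled symbols are called and dotted lines mark a log2 change of 1 either way. Pkp1 and Cryab are highest and Dsg2 and Hspb1 lowest in both comparisons.

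Of 15 tested genes that process lamins or anchor them to the inner nuclear membrane, 1 rose and 1 fell against YAP-culture iPSCs (median log2 difference 0.04), where 30.3% of all tested genes were called. Against control iPSCs 2 rose and 3 fell (-0.10), where 31.8% were called. Tor1aip1, which encodes the lamina-associated protein LAP1, was 11.6, 13.6 and 11.2 FPKM in YAP colonies and was listed at 0 in all 6 iPSC libraries, which can be a failed estimate. Zmpste24, the protease that matures prelamin A, was 19.1, 19.8 and 17.9 FPKM in YAP colonies, 12.7, 13.004 and 10.1 in YAP-culture iPSCs, and 9.04, 9.08 and 8.11 in control iPSCs. It rose by 1.03 against control iPSCs (limma adjusted p = 6.13e-05), and without control iPSC replicate 3 by 0.98, under the fold threshold. The farnesyltransferase subunit genes were lower in the colonies. Fnta was 43.8, 34.6 and 34.3 FPKM in YAP colonies, 79.2, 95.04 and 67.5 in YAP-culture iPSCs, and 77.7, 84.0 and 77.1 in control iPSCs. Fnta fell, with log2 differences of -1.08 and -1.07 (limma adjusted p = 2.35e-04 in each comparison), and was under the fold threshold without YAP-culture iPSC replicate 2 (-0.95) and, in both comparisons, with quantile normalization (-0.99 and -0.89). Fntb fell by 1.24 against control iPSCs (limma adjusted p = 3.72e-04). Of 6 genes of the complex that links lamins to the cytoskeleton, 4 were tested. Syne2 (nesprin-2) rose by 1.55 and 1.91 (limma adjusted p = 1.84e-06 and 4.91e-07), and Syne4 (nesprin-4), at 8.36, 7.40 and 6.26 FPKM in YAP colonies and 18.9, 19.1 and 19.8 in control iPSCs, fell by 1.29 (limma adjusted p = 0.00260).

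The genes whose profiles over the 9 libraries lay nearest to each gene were found by the root mean square difference of log2(FPKM + 1) after each gene's own mean was subtracted. This describes libraries that share 3 groups and carries no test. Nearest to Vim were Nfib, a nuclear factor I gene, at 0.179, Bag2 at 0.190 and Apba2 at 0.198, where the median over all tested genes was 1.56. Nearest to Des were Prss42 at 0.101, the epithelial adhesion gene Epcam at 0.108 and Bin2 at 0.134 (median 1.68). Krt18 lay nearest to Cox7a1, Grb7 and Mapk13 at 0.241 to 0.248 (median 1.78), Krt7 to Casz1, Dnm1 and Cd164l2 at 0.210 to 0.236 (median 1.08), and Krt8 to Aarsd1, Psmb6 and Snrnp25 at 0.118 to 0.127 (median 0.699). Lmna lay nearest to Crip2, Tppp3 and Tmem132a at 0.232 to 0.294 (median 1.23), Nes to Tmem173, Ddc and Bcr at 0.172 to 0.196 (median 0.716), and Krt19 to Tspo, Psmd5 and Tubb4b-ps1 at 0.249 to 0.304 (median 0.871). Lmnb1 lay nearest to the ETS factor gene Etv5 at 0.047 (median 0.446), followed by Rpusd2 and Ybx1-ps2, and Lmnb2 to Yif1b, Siva1 and Tomm40 at 0.074 to 0.079 (median 0.613). No member was among the 3 nearest genes of another member: the closest pair, Krt8 and Krt19, differed by 0.398, and Des and Krt18 by 0.486.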

How the data were processed

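The series measured polyadenylated RNA of 9 mouse libraries with a stranded mRNA kit, per the labels' protocols. Per the submitters' processing notes, the tools were TopHat and Cufflinks and the build was mm10; no version or setting is given in the sources used here. Values are FPKM of each gene in each library, as deposited, and their table of group means was not used. Columns were matched to samples by heading and replicate number. File positions start from 0 and are given here from 1.

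The 13808 rows averaging 1 FPKM or more were fitted on log2(FPKM + 1) with limma 3.58.1 (R 4.3.3), with 3 group means, a trended variance prior, and two-sided p-values with Benjamini-Hochberg adjustment. The fit was tested on simulated data. Near-identical copies were sought with blastn 2.17.0 among GENCODE M21 transcripts. From each of 4 gene lists of related function the 2 called genes with the largest change each way per comparison are named; other genes are named where a count was small, or as markers from 7 lists. The members and lists were chosen with earlier results of these data known. Alternatives were other pseudocounts, filters and scalings, a replicate block, array weights, no fold threshold, summed rows, and each library left out. Depth could not be recovered from FPKM.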

Additional observations from a re-analysis of the deposited data

How the results depend on the processing

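In the colony comparisons Vim, Des and Krt18 kept their direction and call under every alternative run, and so did Lmna against YAP-culture iPSCs. Log2 differences of Vim ranged from 3.24 to 3.59 against YAP-culture iPSCs and from 2.88 to 3.29 against control iPSCs. Beside the counts of 4184, 4396 and 192 genes called (colonies against YAP-culture iPSCs, colonies against control iPSCs, and YAP-culture against control iPSCs), a pseudocount of 5 gave 2108, 2259 and 57, a minimum of 5 FPKM gave 2421, 2599 and 114, and no fold threshold gave 8203, 8452 and 629. The last comparison had 36 calls in a fit of its own 2 groups and 922 with array weights. Leaving out single libraries gave 4072 to 4421, 4225 to 4421 and 52 to 1048 genes, and 6 to 6, 5 to 7 and 0 to 5 of the 10 genes.

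Of the 6 genes called against YAP-culture iPSCs, 4 were called with a pseudocount of 5, without Nes and Krt7. Of the 7 genes called against control iPSCs, 4 were called with a pseudocount of 5 and 4 with a minimum of 5 FPKM, which leaves out Krt7, Krt8 and Krt19. Between the iPSC groups the 1 call became 0 with a pseudocount of 0.1 or 5, no filter, a minimum of 5 FPKM, a fit of 2 groups or the replicate block, 2 with median-ratio scaling and 3 with array weights. Without both colony replicate 1 and YAP-culture iPSC replicate 3, chosen after seeing the data, 1050 genes and 6 of the 10 were called there. The cause was not tested.

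Signs changed only for differences that had not been called. For Krt19 in colonies against YAP-culture iPSCs the value was 0.02 with a pseudocount of 5, 0.03 with quantile normalization, 0.59 with array weights, 0.50 without colony replicate 1, 0.21 without YAP-culture iPSC replicate 3 and 0.77 without both, and leaving out single libraries gave -0.48 to 0.50. For Lmnb1 it was 0.02 with array weights and 0.04 without both libraries, and for Lmnb2 -0.01 without YAP-culture iPSC replicate 2, with a range of -0.01 to 0.67 over single libraries left out. Lmnb1 against control iPSCs was 0.11 with quantile normalization and 0.07 without colony replicate 1, alone or with the other library (-0.23 to 0.07 over single libraries left out), and between the iPSC groups -0.02 with array weights.

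Deviations from group means correlated between -0.141 and 0.188 for same-numbered libraries of different groups. For differently numbered libraries the range was -0.182 to 0.212, so the values give no sign of pairing by number. With the replicate block 4398 genes were called in colonies against control iPSCs and 160 between the iPSC groups.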
